A study of Rattus norvegicus with 18 samples.

Results

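The neural retina and the RPE/choroid of young, untreated rats were compared at baseline, to describe how far apart the transcriptomes of these adjoining tissues lie before age or treatment enters. The libraries were taken by their tissue and age labels: 3 from young neural retina and 3 from young RPE/choroid, which is 6 of the 18 RNA-seq libraries. All 6 came from wild-type (WT) Fischer 344 rats, an albino strain, at 4 months of age, without treatment; the study's methods state that only females were used. The age is that of the labels, and the study's text gives a younger one in places. The members are all genes found in both count tables, 31938 Ensembl identifiers, of which 16106 had enough counts in these 6 libraries to be tested. The cornea, iris and lens were cut away, the retina was lifted off, and the RPE/choroid was collected by rinsing the emptied eye cup in lysis reagent, so that RPE, choroid and whatever else stayed in the cup form 1 sample. Retina libraries were made by poly-A capture, whereas the RPE/choroid, which yielded little RNA, went through a poly-A protocol that favours full-length transcripts. The tables also come from different counting steps (RSEM expected counts for retina, raw counts for RPE/choroid). Tissue therefore cannot be told apart from library preparation, sequencing and counting in any difference below. RPE/choroid libraries 1 and 2 share a code number and differ in the letters L and R, and the labels do not say whether they are both eyes of 1 rat, so the p-values cover the spread between these libraries, part of which may be technical.

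The retina is the neural sheet that detects light: rods and cones pass signals through ribbon synapses to bipolar cells and on to ganglion cells, with horizontal and amacrine cells shaping the signal and Müller glia supporting all of them. The retinal pigment epithelium (RPE) behind it makes melanin, rebuilds the light-sensitive chromophore in the visual cycle, engulfs shed photoreceptor outer segments and forms the outer blood-retinal barrier. The choroid beyond the RPE is a vascular layer of fenestrated capillaries, arteries, fibroblasts, melanocytes, nerves and resident immune cells.

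Library totals ran from 13495772 to 15644346 counts in retina and from 28573828 to 48203050 in RPE/choroid. Levels are CPM, counts scaled to TMM-corrected totals, given for libraries 1, 2 and 3 in that order, and can be compared between tissues for 1 gene but not between genes, since gene lengths were not used. A gene was called higher in a tissue when its mean CPM was at least 4-fold that of the other tissue and its lowest library there lay above the highest library of the other. By this rule 3320 of 16106 genes (20.6%) were higher in retina and 3559 (22.1%) were higher in RPE/choroid, 42.7% in all. Of all genes tested, 5185 (32.2%) lay within 2-fold. At 32-fold or more, 793 of the called genes were higher in retina and 1058 were higher in RPE/choroid. With edgeR's quasi-likelihood test (3 libraries against 3, Benjamini-Hochberg adjusted p under 0.05 over the 16106 genes), 6110 genes (37.9%) were higher in retina and 7142 (44.3%) in RPE/choroid, 82.3% in all, and 88.2% of genes had no overlap between tissues at any fold. The test thus calls most of the transcriptome, and 94 of the genes called by the 4-fold rule missed it. The median log2 fold change over all genes was -0.10 (retina over RPE/choroid, as for every log2 fold change below). In bulk samples such as these, fewer cells of a type and less RNA per cell cannot be told apart.

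**Figure D1:**
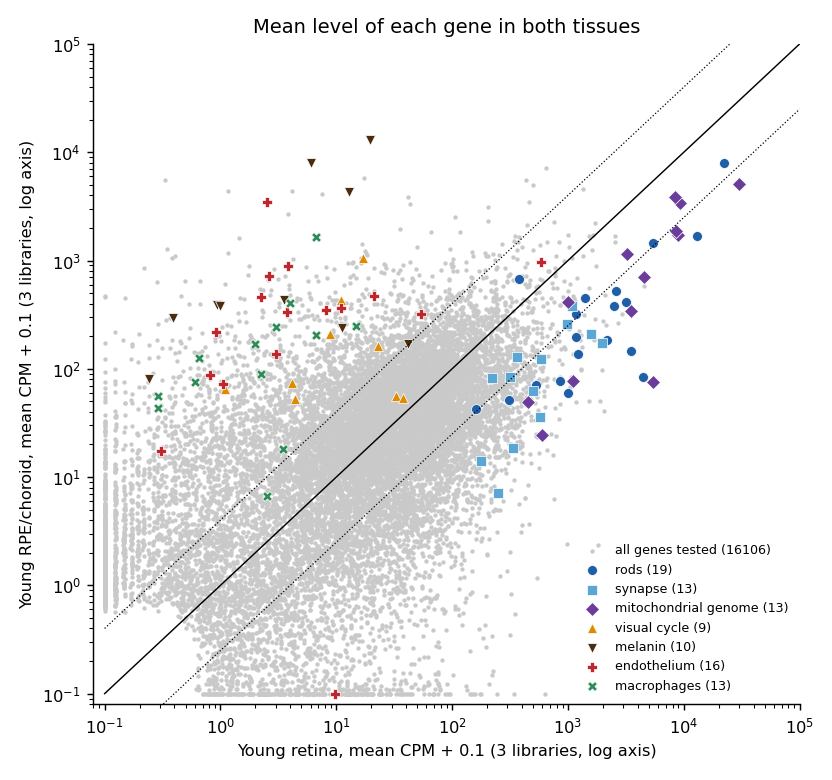
Each grey point is 1 of the 16106 genes tested. The x axis gives its mean CPM in the 3 young retina libraries. The y axis gives its mean CPM in the 3 young RPE/choroid libraries. Both axes are on log scales with 0.1 CPM added. Coloured points are members of the rod, synapse, mitochondrial genome, visual cycle, melanin, endothelium and macrophage lists. A broad cloud of genes lies near the line of equal levels.

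The 3 retina libraries resembled each other (Pearson's r of log2(CPM + 1) across genes at least 0.988), the RPE/choroid libraries somewhat less (at least 0.951), and pairs of unlike tissue lay between 0.457 and 0.604. Genes of 1 sample are not replicates, so these values only describe the libraries. Some libraries stood apart from their own tissue: RPE/choroid libraries 1 and 2 held far more photoreceptor and other neuronal RNA than library 3, RPE/choroid library 2 held striated muscle RNA, and retina libraries 1 and 2 held lens RNA. The values are given with the gene groups that they touch. Marker lists were described by how many members were called in each direction and by their median, to be read against the 20.6% and 22.1% of all genes called. Members named from a list are those with its highest levels and those that went against it, and a few more were named after their values were seen.

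Of 19 rod genes tested, 13 were called higher in retina and 0 in RPE/choroid, with a median log2 fold change of 2.70 (edgeR adjusted p under 0.05 for 13). Gnat1, the rod transducin alpha subunit, had 13292, 11941 and 13434 CPM in retina against 2135, 2690.3 and 245 CPM in RPE/choroid, 7.63-fold on the means (edgeR adjusted p = 0.018). Pde6a, the alpha subunit of the rod phosphodiesterase, stood further apart, at 4348, 4304 and 4652 CPM against 116, 125 and 9.83 CPM (52.9-fold, log2 fold change 5.73, SE 1.02, edgeR adjusted p = 0.0026). Sag, rod arrestin, had 5392, 5077 and 5764 CPM against 2116, 2056 and 167 CPM, without overlap but 3.74-fold apart. Pde6g, the inhibitory subunit of the same phosphodiesterase, went against the list, with 397, 378 and 359.8 CPM in retina and 816, 1063 and 129.7 CPM in RPE/choroid, where library 3 lay below every retina library and libraries 1 and 2 above (edgeR adjusted p = 0.31).

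Summed over the 19 genes, rod RNA amounted to 68821, 63646 and 69367 CPM in retina and 20101, 22215 and 2260 CPM in RPE/choroid, or 29.9%, 33.0% and 3.36% of the retina mean. All 19 genes were lowest in RPE/choroid library 3, with 6.30 to 23.9 times as much in library 1 as in library 3 (median 9.63), whereas the median over all 13125 genes with at least 1 CPM in the 3 RPE/choroid libraries was 0.967. The share that rod genes reached in RPE/choroid was uneven: in library 1 it ran from 2.63% of the retina mean for Pde6a to 216% for Pde6g. How much of this RNA came from retina left in the eye cup was not tested. The promoters of the called rod genes Cngb1 and Gngt1, the beta subunit of the rod cation channel and the transducin gamma subunit, are shown because both hold the core letters bound by CRX, the homeobox factor of photoreceptors. The sequences are the 250 bases before the start site on the gene's own strand, from RefSeq on the GRCr8 assembly, which is not the Rnor_6.0 build named for the count files. Capitals mark TAATCC or its reverse complement GGATTA.
Cngb1 (chr19:9732396-9732645, plus strand): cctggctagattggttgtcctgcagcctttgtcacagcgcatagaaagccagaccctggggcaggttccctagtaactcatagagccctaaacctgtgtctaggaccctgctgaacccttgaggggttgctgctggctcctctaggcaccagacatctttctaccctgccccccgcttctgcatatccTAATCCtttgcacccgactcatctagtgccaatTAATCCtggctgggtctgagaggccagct
Gngt1 (chr4:32960695-32960944, plus strand): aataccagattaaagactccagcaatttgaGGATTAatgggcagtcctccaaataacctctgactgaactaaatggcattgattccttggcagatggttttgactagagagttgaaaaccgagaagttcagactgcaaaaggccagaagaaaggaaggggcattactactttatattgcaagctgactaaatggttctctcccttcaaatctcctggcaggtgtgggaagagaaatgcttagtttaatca
Both strands were searched. Of 13 rod genes with a promoter entry, 3 held the letters (23.1%), against 1737 of 27457 promoters of the same length (6.33%). They were also in 2 of 7 visual cycle promoters (28.6%) and 2 of 8 melanin promoters (25%), lists that were higher in RPE/choroid. The match is a description of the letters only. Cngb1 had 843, 869.7 and 867 CPM in retina and 111, 106 and 14.1 CPM in RPE/choroid (11.2-fold, edgeR adjusted p = 0.0067). Gngt1 had 2429, 2467 and 2561 CPM against 531, 546 and 67.4 CPM (6.52-fold, edgeR adjusted p = 0.018). In both, RPE/choroid library 3 was again lowest.

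Of 10 cone genes, 4 were called higher in retina and 0 in RPE/choroid, with a median log2 fold change of 1.63 (edgeR adjusted p under 0.05 for 3 higher in retina and 1 higher in RPE/choroid). Gnat2, the cone transducin alpha subunit, had 126, 125 and 126 CPM in retina and 40.0, 29.7 and 3.27 CPM in RPE/choroid (5.17-fold, edgeR adjusted p = 0.038). Opn1mw, the green-sensitive opsin, had 41.4, 37.5 and 43.8 CPM against 26.2, 18.9 and 1.53 CPM, with no overlap and no call (2.63-fold). Gngt2, the cone transducin gamma subunit, was the member that was higher in RPE/choroid by the test, with 15.2, 15 and 13.9 CPM in retina and 26.4, 26.5 and 31.1 CPM in RPE/choroid (log2 fold change -0.93, SE 0.11, edgeR adjusted p = 0.00039), and unlike the other 9 it was not lowest in RPE/choroid library 3. Without that library, the 4-fold rule called 2 cone genes and the test 9, higher in retina.

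Among bipolar genes, 7 of 12 were called higher in retina and 0 in RPE/choroid (median 2.1, edgeR adjusted p under 0.05 for 3). Gpr179, an orphan receptor of the ON bipolar signalling complex, had 318, 303 and 328 CPM in retina and 4.67, 1.02 and 0.108 CPM in RPE/choroid (164-fold, log2 fold change 7.39, SE 1.27, edgeR adjusted p = 0.0022). Prkca, protein kinase C alpha and a rod bipolar marker, had 379, 359.7 and 389 CPM against 45.3, 34.7 and 10.4 CPM (12.5-fold, edgeR adjusted p = 0.0013). Trpm1, the cation channel of ON bipolar cells that melanocytes also express, had 492, 435 and 484 CPM against 191, 142 and 70.3 CPM, 3.51-fold apart and uncalled. Cacna1s, the calcium channel subunit of skeletal muscle, went against the list only through RPE/choroid library 2, with 2.36, 1.65 and 1.63 CPM in retina and 0.610, 21.4 and 0.516 CPM in RPE/choroid.

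Of 15 amacrine and horizontal cell genes, 12 were called higher in retina and 0 in RPE/choroid (median 3.27, edgeR adjusted p under 0.05 for 11). Slc6a9, the glycine transporter, had 384, 368 and 387 CPM in retina and 9.04, 6.65 and 0.796 CPM in RPE/choroid (69.1-fold, edgeR adjusted p = 0.0013). Gad1, which makes GABA, had 402, 392 and 472 CPM against 117, 116 and 6.30 CPM, and its 5.30-fold difference missed the test (edgeR adjusted p = 0.061). Tfap2b, a transcription factor of amacrine cells, had 336, 323 and 379.7 CPM against 33.0, 29.4 and 25.7 CPM, so here the 3 RPE/choroid libraries were close to one another (11.8-fold, edgeR adjusted p = 6.0e-06). Of the 15 genes, 14 were lowest in RPE/choroid library 3.

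Of 12 ganglion cell genes, 6 were called higher in retina and 0 in RPE/choroid (median 1.93, edgeR adjusted p under 0.05 for 4 higher in retina and 1 higher in RPE/choroid). Nefh, the heavy neurofilament chain of axons, was called and passed the test, with 152, 150.0 and 155 CPM in retina and 54.0, 33.5 and 14.4 CPM in RPE/choroid (edgeR adjusted p = 0.0058). Nefl, the light chain, had 383, 359.6 and 402 CPM against 224, 203 and 12.1 CPM and was uncalled, with no overlap. Thy1, a surface glycoprotein of ganglion cells and of other cells, was close in both tissues, with 148, 143 and 150.3 CPM and 145, 145 and 75.8 CPM. Rbpms, an RNA-binding protein, was higher in RPE/choroid by the test and below 4-fold, with 10.4, 10.4 and 9.64 CPM in retina and 50.3, 28.9 and 21.5 CPM in RPE/choroid (edgeR adjusted p = 0.0028). Without RPE/choroid library 3, calls in retina went from 7 to 3 of 12 bipolar genes and from 6 to 3 of 12 ganglion cell genes, while genes that passed the test went from 3 to 10 and from 4 to 8.

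Genes of the synapse showed the same picture. Of 13, 8 were called higher in retina and 0 in RPE/choroid (median 2.91, edgeR adjusted p under 0.05 for 9), and all 13 were lowest in RPE/choroid library 3. Slc17a7, which loads glutamate into synaptic vesicles, had 1996, 1865 and 2003 CPM in retina and 309, 189 and 22.3 CPM in RPE/choroid (11.3-fold, edgeR adjusted p = 0.013). Syt1, the calcium sensor of vesicle release, had 1536, 1471 and 1698 CPM against 319.5, 288 and 18.9 CPM (7.51-fold, edgeR adjusted p = 0.032). Snap25, a SNARE protein, had 1032, 1035 and 1202 CPM against 589, 509.9 and 32.7 CPM and missed both rules, with no overlap. The list summed to 8737, 8584 and 9429 CPM in retina and 2382, 1979 and 350 CPM in RPE/choroid. Over the 6 neuronal lists together, 50 of 81 genes tested were called higher in retina and 0 in RPE/choroid.

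**Figure D2:**
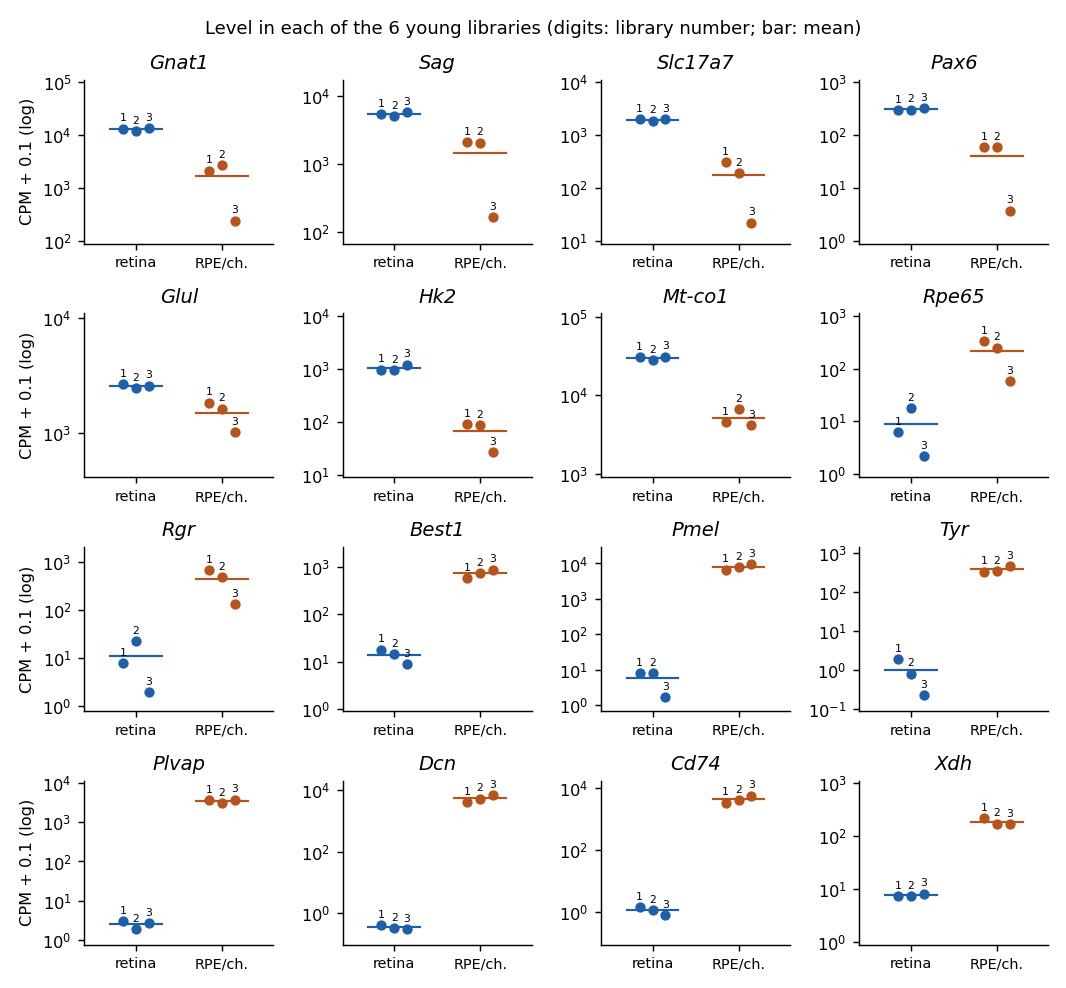
Levels of 16 genes in each of the 6 young libraries, in CPM on a log axis with 0.1 CPM added; each point is 1 library, coloured by tissue, and the bars mark group means. RPE/choroid library 3 lies below libraries 1 and 2 for Gnat1, Sag, Slc17a7, Pax6 and Rpe65, while Pmel, Tyr, Plvap, Dcn and Cd74 are close in all 3 RPE/choroid libraries and far above retina.

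Genes of Müller glia separated the tissues less: of 10 tested, 3 were called higher in retina and 1 in RPE/choroid, with a median of 0.88 (edgeR adjusted p under 0.05 for 5 and 1). Glul, glutamine synthetase, had 2651, 2473 and 2586 CPM in retina and 1833, 1624 and 1021 CPM in RPE/choroid, a 1.72-fold difference that passed the test (edgeR adjusted p = 0.02). Dkk3, a secreted modulator of Wnt signalling, was similar, with 1771, 1708 and 1781 CPM against 1064, 1068 and 525 CPM (1.98-fold, edgeR adjusted p = 0.018). Slc1a3, the glial glutamate transporter, was called, at 347, 337 and 382 CPM against 107, 96.6 and 9.96 CPM (4.99-fold, edgeR adjusted p = 0.039). Apoe, the lipid carrier that macrophages and RPE also make, went the other way, with 566, 481 and 456 CPM in retina and 3939.7, 5270.5 and 5678 CPM in RPE/choroid (9.91-fold higher in RPE/choroid, edgeR adjusted p = 2.3e-05). Rlbp1, the retinaldehyde-binding protein of both Müller glia and RPE, overlapped, with 299, 282 and 303 CPM in retina and 363, 316 and 46.8 CPM in RPE/choroid, and its log2 fold change of 0.29 turned to -0.21 without RPE/choroid library 3. Without that library 1 Müller gene was called higher in retina.

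Of 9 genes of retinoid handling, 7 were called higher in RPE/choroid and 0 in retina; the list median was -4.21 on the log2 scale (edgeR adjusted p under 0.05 for 7). Rpe65, the isomerase that regenerates 11-cis retinoid, had 6.26, 17.7 and 2.08 CPM in retina and 326, 249 and 58.6 CPM in RPE/choroid (24.3-fold higher in RPE/choroid, log2 fold change -4.61, SE 1.03, edgeR adjusted p = 0.0068). Ttr, transthyretin, a carrier of retinol and its binding protein, had 11.6, 36.7 and 2.41 CPM against 1631, 1196 and 341 CPM (62.5-fold, edgeR adjusted p = 0.0049). Rgr, a retinal-binding opsin of the RPE, had 7.81, 22.9 and 1.89 CPM against 684, 494 and 132 CPM (40.1-fold, edgeR adjusted p = 0.0056). In all 3 genes every RPE/choroid library lay above every retina library, but both tissues varied, with retina library 2 highest and library 3 lowest, and RPE/choroid library 3 lowest.

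Lrat, which esterifies retinol, had 2.14, 9.96 and 0.846 CPM against 74.8, 66.7 and 15.5 CPM (12.1-fold, edgeR adjusted p = 0.02). The uncalled members were Rdh10 and Rrh. Rdh10, a retinol dehydrogenase, had 33.3, 34.0 and 31.0 CPM in retina and 105, 46.3 and 15.7 CPM in RPE/choroid. Rrh, the opsin peropsin, had 35.1, 40.0 and 36.9 CPM against 87.3, 59.8 and 14.1 CPM. In both, RPE/choroid library 3 lay below the retina libraries and libraries 1 and 2 above. All 9 genes were lowest in RPE/choroid library 3, as the rod genes were, and the ratio of library 1 to library 3 had a median of 4.89 (1.27 to 6.71).

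The melanin list was called throughout: 10 of 10 genes were higher in RPE/choroid by the 4-fold rule and by edgeR's test, with a median log2 fold change of -8.81. Dct, dopachrome tautomerase, had 19.97, 27.5 and 11.1 CPM in retina and 11720, 12538 and 14536 CPM in RPE/choroid (663-fold higher in RPE/choroid, log2 fold change -9.37, SE 0.49, edgeR adjusted p = 1.2e-05). Pmel, whose protein forms the fibrils of the melanosome, had 8.03, 8.24 and 1.63 CPM against 6676, 7772 and 9639.9 CPM (1346-fold, edgeR adjusted p = 6.5e-05). Tyrp1, tyrosinase-related protein 1, had 17.5, 18.2 and 3.00 CPM against 4652, 4197 and 4105 CPM (335-fold, edgeR adjusted p = 0.0002). Tyr, tyrosinase, which starts melanin synthesis and whose loss of function underlies albinism, was present as RNA in these albino rats, at 328, 344 and 462 CPM in RPE/choroid against 1.84, 0.717 and 0.130 CPM in retina (422-fold, edgeR adjusted p = 0.00013). Mitf, the transcription factor of pigment cells, had 12.7, 9.39 and 11 CPM against 202, 229 and 285 CPM (21.6-fold, edgeR adjusted p = 7.7e-06), and Slc24a5, the melanosomal exchanger, was nearest to the threshold at 4.13-fold.

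Unlike the visual cycle, 9 of 10 melanin genes were highest in RPE/choroid library 3 (median ratio of library 1 to library 3 of 0.739). The list summed to 95.8, 111 and 82.6 CPM in retina and 24769, 26406 and 30600 CPM in RPE/choroid, so the retina libraries held 0.406% of the RPE/choroid mean at most. RPE cells and choroidal melanocytes both express these genes and cannot be separated here. The promoters of Tyr, Tyrp1 and Dct are shown because the 3 enzymes of the pathway share the core letters of the M-box, the E-box element that MITF binds; capitals mark CATGTG, whose reverse complement is CACATG, in the 250 bases before the start site (RefSeq, GRCr8).
Tyr (chr1:150622858-150623107, minus strand): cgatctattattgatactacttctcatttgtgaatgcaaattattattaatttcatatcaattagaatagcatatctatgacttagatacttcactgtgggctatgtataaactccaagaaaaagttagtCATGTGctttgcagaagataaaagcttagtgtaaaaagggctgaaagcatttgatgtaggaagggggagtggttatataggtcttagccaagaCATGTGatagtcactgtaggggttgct
Tyrp1 (chr5:100326875-100327124, plus strand): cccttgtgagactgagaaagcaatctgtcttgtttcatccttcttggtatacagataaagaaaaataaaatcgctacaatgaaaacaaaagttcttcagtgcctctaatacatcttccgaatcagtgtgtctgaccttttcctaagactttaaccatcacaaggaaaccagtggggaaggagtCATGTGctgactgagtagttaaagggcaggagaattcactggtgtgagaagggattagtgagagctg
Dct (chr15:101508030-101508279, minus strand): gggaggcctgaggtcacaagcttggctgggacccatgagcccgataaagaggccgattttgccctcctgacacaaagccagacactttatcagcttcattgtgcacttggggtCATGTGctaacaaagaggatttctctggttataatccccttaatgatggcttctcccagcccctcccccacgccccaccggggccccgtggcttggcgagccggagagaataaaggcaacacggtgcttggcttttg
Of 8 melanin genes with a promoter entry, 5 held these letters on either strand (62.5%), against 3223 of 27457 promoters (11.7%), 2 of 13 rod promoters (15.4%) and 2 of 7 visual cycle promoters. These are counts of letters, not of bound sites.

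**Figure D3:**
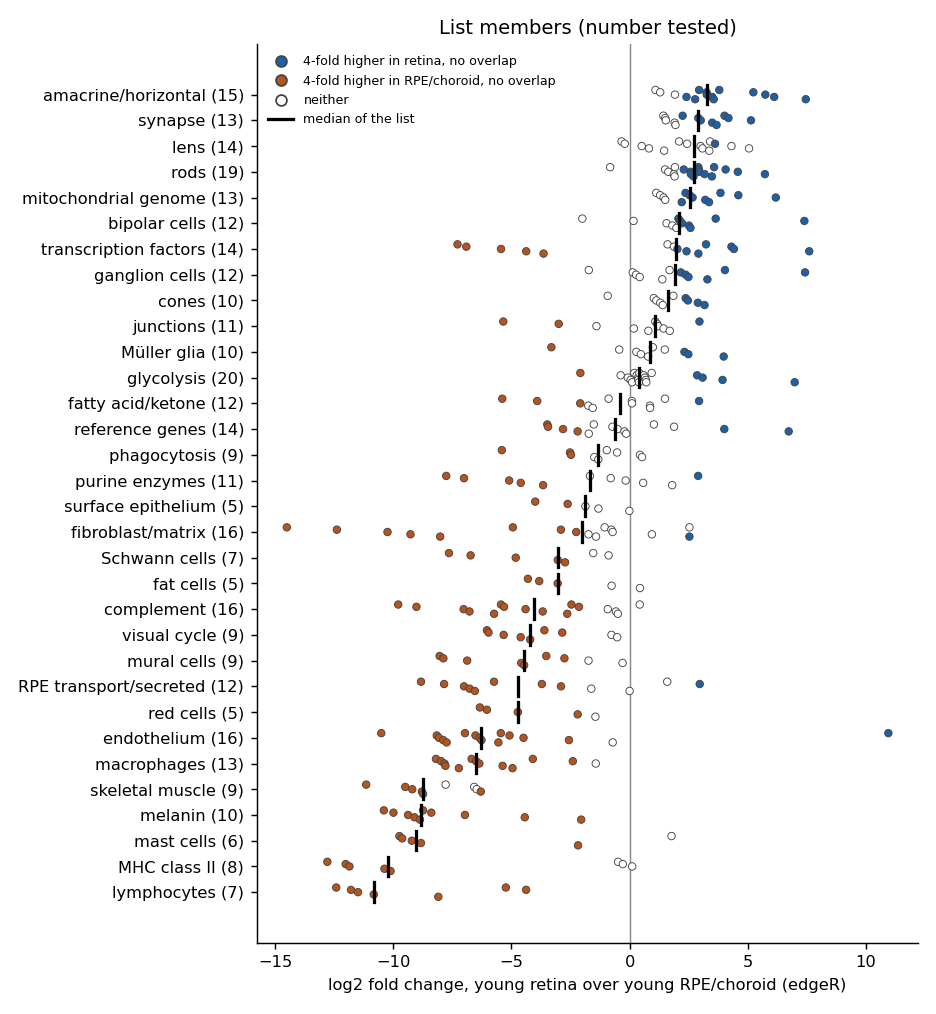
Each point is the log2 fold change (retina over RPE/choroid) of 1 tested list member, with 1 row for each marker list and a bar at the list's median; values above 0 are higher in retina. The neuronal lists lie to the right with medians of 1.63 to 3.27, and the melanin, endothelium, macrophage and MHC class II lists lie to the left with medians from -6.31 to -10.24.

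Of 12 genes for RPE channels, transporters and secreted proteins, 8 were called higher in RPE/choroid and 1 in retina, with a median of -4.72 (edgeR adjusted p under 0.05 for 8 and 1). Timp3, an inhibitor of metalloproteinases deposited in Bruch's membrane, had 45.1, 49.3 and 29.1 CPM in retina and 3469, 3391 and 4678 CPM in RPE/choroid (93.4-fold, edgeR adjusted p = 1.0e-05). Cst3, the secreted protease inhibitor cystatin C, had 514, 490.2 and 390.0 CPM against 3200.2, 3933 and 3285 CPM (7.47-fold). These were higher in every RPE/choroid library than in any retina library. Ptgds, prostaglandin D synthase, had 106, 128 and 55.9 CPM against 1229, 1359 and 1213 CPM (13.1-fold). Best1, the chloride channel bestrophin of the basolateral RPE membrane, had 17.9, 14.5 and 8.86 CPM against 571, 749.8 and 878 CPM (53.3-fold, log2 fold change -5.74, SE 0.35, edgeR adjusted p = 2.1e-05). In these 4 genes the RPE/choroid libraries were close to each other, but 5 of the 12 members were lowest in RPE/choroid library 3, among them Slc16a8, the lactate transporter of the RPE, and the claudin gene Cldn19, with 4.13 and 5.51 times as much in library 1 as in library 3.

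Trpm3, the cation channel that hosts a microRNA of the RPE in its intron, was the member called higher in retina, with 212, 236 and 191 CPM against 41.3, 30.6 and 9.93 CPM (7.81-fold, edgeR adjusted p = 0.0026). Efemp1, a matrix protein often listed as an RPE marker, did not separate the tissues, with 118, 133 and 69.1 CPM in retina and 104, 118 and 97.8 CPM in RPE/choroid, and its log2 fold change had no stable sign across settings. Retina library 3 was the lowest retina library for all 12 genes, as it was for 8 of 9 visual cycle genes.

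Genes that the study names as markers of RPE identity include several of those above. Crispld1, a secreted protein, had 3.61, 5.66 and 0.456 CPM in retina and 8.87, 8.55 and 12.4 CPM in RPE/choroid (edgeR adjusted p = 0.091). The integrin gene Itgav was higher in retina by the test, with 72.9, 67.1 and 69.1 CPM against 58.9, 46.5 and 39.8 CPM (edgeR adjusted p = 0.018). Itgb8, another integrin, overlapped at 9.72, 14.6 and 10.6 CPM and 33.6, 16.8 and 9.03 CPM (edgeR adjusted p = 0.19). Of the genes so named, Efemp1, Itgav, Itgb8, Gulp1, Crispld1 and Rlbp1 were uncalled. Gulp1, an adaptor for engulfment, was higher in RPE/choroid by the test only, at 38.6, 47.4 and 46.8 CPM against 60.2, 71.4 and 60.1 CPM (edgeR adjusted p = 0.0069).

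Among 9 receptors and ligands of outer segment uptake, 3 were called higher in RPE/choroid and 0 in retina (median -1.32), and edgeR's adjusted p was under 0.05 for 7 higher in RPE/choroid and 1 in retina. Mertk, the receptor kinase for uptake, was 2.51-fold higher in RPE/choroid, with 32.05, 31.3 and 30.5 CPM in retina and 81.4, 76.7 and 77.0 CPM in RPE/choroid (edgeR adjusted p = 1.5e-05). Its ligand Gas6 was called, with 202, 199 and 191 CPM against 945, 1135 and 1219.8 CPM (5.58-fold, edgeR adjusted p = 1.4e-05). Pros1, the other ligand, had 25.7, 24.8 and 25.5 CPM against 137, 139 and 161 CPM (5.75-fold, edgeR adjusted p = 5.7e-06). The called members were thus both ligands and the scavenger receptor Cd36, which had 0, 0.287 and 0.195 CPM in retina and 6.47, 8.80 and 5.999 CPM in RPE/choroid. Mfge8, the bridge from outer segments to integrins, had 350.4, 323 and 337 CPM against 629.9, 677 and 663 CPM, uncalled and without overlap.

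Of 16 endothelial genes, 14 were called higher in RPE/choroid and 1 in retina, with a median of -6.31 (edgeR adjusted p under 0.05 for 15 and 1). Plvap, the diaphragm protein of fenestrated capillaries, had 2.87, 1.79 and 2.54 CPM in retina and 3633, 3078 and 3779 CPM in RPE/choroid (1456-fold, log2 fold change -10.51, SE 0.29, edgeR adjusted p = 4.0e-06). Eng, a TGF-beta co-receptor, had 4.27, 3.30 and 3.71 CPM against 742, 797 and 1128 CPM (236-fold). Tie1, an endothelial receptor kinase, had 2.95, 2.15 and 2.47 CPM against 608, 561 and 997 CPM (286-fold). In retina these 3 genes were at a few CPM at most. Kdr, the main VEGF receptor, which retinal neurons and glia can also express, was near in both tissues, with 585, 554 and 627 CPM and 1016, 785 and 1101 CPM (1.64-fold, edgeR adjusted p = 0.0055). Cldn5, the claudin of tight vessels such as those of the retina, was the member higher in retina, with 9.80, 10.5 and 8.40 CPM against 0 counts in the 3 young RPE/choroid libraries and in all 9 of that table, at least 358-fold higher by a floor of 3 counts over the group. A gene at 0 in every library of a table may also be one that its counting did not report, and which of these holds was not tested.

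Mural cell genes were called in RPE/choroid for 7 of 9 and in retina for 0 (median -4.46, edgeR adjusted p under 0.05 for 8). Tagln, a smooth muscle actin-binding protein, had 3.02, 2.51 and 1.95 CPM in retina and 647, 618 and 700.3 CPM in RPE/choroid (263-fold). Rgs5, a pericyte regulator of G protein signalling, had 13.8, 17.5 and 15.6 CPM against 249.7, 324 and 459 CPM (22.0-fold). Pdgfrb, the pericyte receptor, had 17.2, 18.1 and 13.4 CPM against 330.4, 338 and 501 CPM. All 3 were lower in every retina library than in any RPE/choroid library.

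Fibroblast and matrix genes gave 8 of 16 called higher in RPE/choroid and 1 in retina (median -2.0, edgeR adjusted p under 0.05 for 11 and 1). Dcn, the proteoglycan decorin, had 0.295, 0.215 and 0.195 CPM in retina and 4259, 5448 and 6909 CPM in RPE/choroid (23568-fold, log2 fold change -14.50, SE 0.39, edgeR adjusted p = 4.0e-06). Col3a1, a fibrillar collagen, had 1.47, 1.29 and 1.24 CPM against 1485, 1435 and 1936 CPM (1214-fold, edgeR adjusted p = 4.0e-06). In retina both were near 0 in every library. Lum, lumican, had 0.663, 0.0717 and 0 CPM against 956, 1379 and 1528 CPM. Sparc, a matrix glycoprotein made by many cells, had 378, 421 and 258 CPM against 1366, 1653 and 2032 CPM (4.78-fold). The chains of collagen I went separate ways. Col1a1 was called higher in RPE/choroid, with 1.84, 0.788 and 0.326 CPM in retina and 562, 409 and 838 CPM in RPE/choroid (611.9-fold). Col1a2, the other chain of the same protein, overlapped at 3.02, 16.8 and 0 CPM in retina and 1.05, 1.32 and 1.03 CPM in RPE/choroid.

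Postn, periostin, went against the list and was called higher in retina, with 92.2, 86.1 and 95.5 CPM against 21.2, 17.2 and 9.05 CPM (5.77-fold, edgeR adjusted p = 0.00049). Retina library 3 was lowest of the retina libraries for 15 of the 16 matrix genes, as for the lens genes below. Col4a1, a basement membrane collagen, had 433, 700.0 and 17.8 CPM in retina and 703, 548 and 713 CPM in RPE/choroid, so that retina libraries 1 and 2 were at or near the RPE/choroid level and library 3 was far under it.

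Schwann cell and myelin genes were called higher in RPE/choroid for 5 of 7 and in retina for 0 (median -3.04). Pmp22, a protein of peripheral myelin, had 38.2, 40.4 and 19.2 CPM against 214, 270.4 and 318 CPM (8.21-fold). Sox10, a transcription factor of Schwann cells and melanocytes alike, had 0.516, 0.860 and 0.391 CPM against 114, 102 and 137 CPM (199.97-fold, edgeR adjusted p = 5.8e-06). Of 8 mast cell genes listed, 6 were tested and 5 were called higher in RPE/choroid. The 4 with 0 counts in retina could pass the filter only through RPE/choroid, so their direction was fixed by passing it. The tryptase gene Tpsb2 had 2.13, 8.42 and 1.83 CPM in RPE/choroid and 0 counts in retina. The list's median of -9.02 was -5.16 when the 4 genes with no retina counts were set at their bound. Kit, the stem cell factor receptor that melanocytes also express, had 24.7, 23.2 and 29.4 CPM in retina and 120.0, 101 and 129 CPM in RPE/choroid. Fcer1a, a chain of the IgE receptor, went against the list, at 5.60, 6.02 and 7.16 CPM in retina and 2.34, 2.73 and 0.452 CPM in RPE/choroid (edgeR adjusted p = 0.038).

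Of 13 microglia and macrophage genes, 12 were called higher in RPE/choroid and 0 in retina, with a median of -6.49, and all 13 passed edgeR's test. Lyz2, the lysozyme of myeloid cells, had 6.63, 5.88 and 7.36 CPM in retina and 1402, 1596 and 2000.5 CPM in RPE/choroid (252-fold, log2 fold change -7.97, SE 0.23, edgeR adjusted p = 4.0e-06). C1qc, a chain of the first complement component, had 4.42, 3.44 and 3.91 CPM against 340.4, 426 and 444 CPM (103-fold). Csf1r, the receptor that myeloid cells need to survive, had 14.7, 14.5 and 14.7 CPM against 200.04, 246 and 302 CPM (17.1-fold). The 3 RPE/choroid libraries were close to each other for all of these. P2ry12, a microglial receptor for ADP, was the member below 4-fold, with 2.505, 3.01 and 1.82 CPM against 4.54, 6.21 and 9.01 CPM.

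Of 10 lymphocyte genes listed, 9 were found and 7 had enough counts to be tested. All 7 were called higher in RPE/choroid, at modest levels. The 4 with 0 counts in retina could pass the filter only through RPE/choroid, so their direction was fixed by passing it. Cd4 had 3.46, 3.73 and 3.91 CPM in retina and 53.8, 75.7 and 101 CPM in RPE/choroid, and in the rat macrophages are known to express it too. Cd8a, the co-receptor of cytotoxic T cells, had 0 counts in retina and 15.9, 13.2 and 22.1 CPM in RPE/choroid. Cd3e, a chain of the T cell receptor complex, had 0.0737, 0.0717 and 0 CPM against 12.4, 14.5 and 15.4 CPM. Nkg7, a granule protein of NK and cytotoxic T cells, had 0 counts in retina and 23.1, 19.6 and 36.2 CPM in RPE/choroid. The median of -10.82 was -7.63 with the 4 genes at 0 in retina set at their bound.

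Genes of MHC class II, which presents antigen on macrophages, dendritic cells and B cells, stood far apart for most members. Of 8 tested, 5 were called higher in RPE/choroid and 0 in retina, with a median of -10.24 (edgeR adjusted p under 0.05 for 5). Cd74, the invariant chain, had 1.40, 1.075 and 0.716 CPM in retina and 3382, 4087 and 5700.3 CPM in RPE/choroid (4127-fold, log2 fold change -12.01, SE 0.44, edgeR adjusted p = 5.6e-06). RT1-Da, a class II alpha chain, had 0.295, 0.215 and 0.326 CPM against 835, 952 and 1366 CPM (3775-fold). RT1-Bb, a beta chain, had 1.25, 1.003 and 0.912 CPM against 961, 994 and 1564 CPM (1111-fold). Retina libraries were thus at or under about 1 CPM for these genes. Ciita, the activator of class II transcription, did not follow its targets, with 22.0, 20.4 and 22.7 CPM in retina and 17.4, 16.3 and 26.7 CPM in RPE/choroid (edgeR adjusted p = 0.64). RT1-DMa and RT1-DMb, which help to load peptide, were also uncalled. RT1-DMb had 1.18, 1.003 and 0.912 CPM in retina and 1.42, 1.38 and 1.53 CPM in RPE/choroid. RT1 and other MHC genes are near-copies of one another, so reads may have been split between them.

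Complement genes were called higher in RPE/choroid for 12 of 16 and in retina for 0 (median -4.04, edgeR adjusted p under 0.05 for 12 and 1). C1s, a protease of the classical pathway, had 7.15, 7.45 and 4.95 CPM in retina and 645, 690.4 and 803 CPM in RPE/choroid (109-fold, edgeR adjusted p = 4.7e-06). Its partner C1r had 11.3, 10.1 and 7.68 CPM against 419, 515 and 608.9 CPM (53.1-fold). The C1 inhibitor Serping1 was higher in RPE/choroid as well, with 11.8, 10.7 and 7.36 CPM against 342, 432 and 523 CPM. C3, the central component, was the member higher in retina by the test, with 20.2, 22.1 and 17.1 CPM against 15.3, 13.0 and 15.8 CPM, a 1.35-fold difference (edgeR adjusted p = 0.032). Over the 4 immune lists together, 36 of 44 genes were called higher in RPE/choroid and 0 in retina, and the 36 include the 4 lymphocyte genes at 0 in retina.

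**Figure D4:**
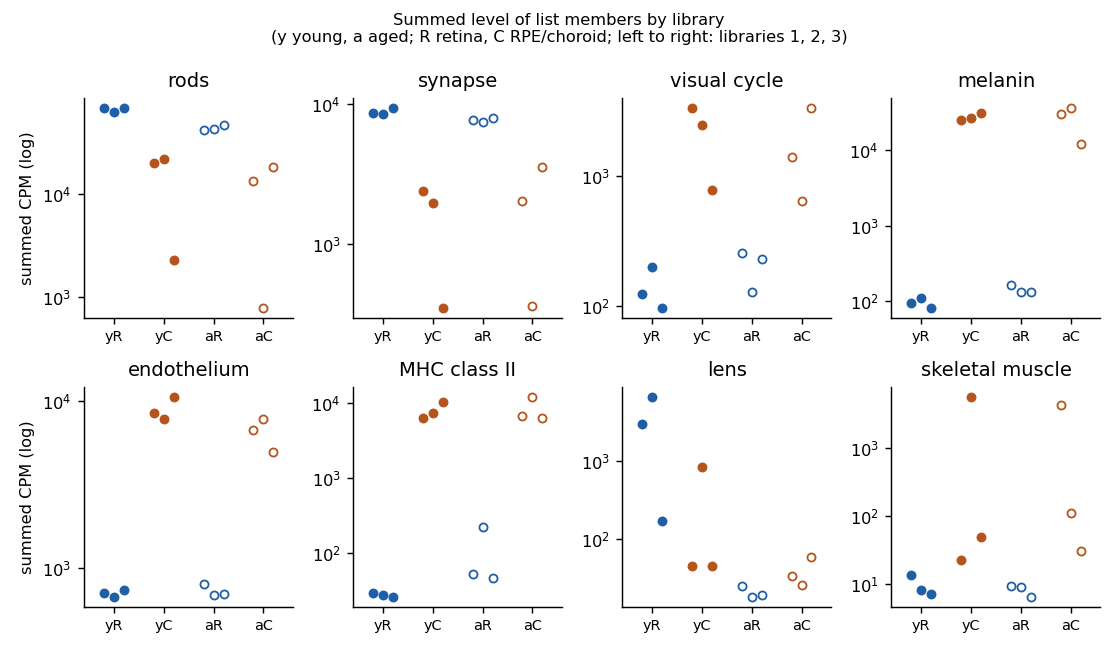
Summed CPM of 8 marker lists in each library, on a log axis; filled points are the 6 young libraries and open points the 6 untreated aged ones, coloured by tissue. Among the young RPE/choroid libraries, rod, synapse and visual cycle sums are lowest in library 3, the skeletal muscle sum stands out in RPE/choroid library 2 (5721 CPM against 22.8 and 49.1), and the lens sum is high in young retina libraries 1 and 2.

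The lists of other eye and orbital tissues varied widely within a tissue, and the part of dissection in this was not tested. Red cell genes were called higher in RPE/choroid for 4 of 5 (median -4.73). Hba-a2, an alpha globin, had 19.9, 17.8 and 10.8 CPM in retina and 700.3, 168 and 2317 CPM in RPE/choroid. Hbb, a beta globin, had 19.6, 20.3 and 11.9 CPM against 290.4, 69.6 and 1008 CPM. In both, RPE/choroid library 3 was highest by far and library 2 lowest of its tissue. Of 14 lens genes, 1 was called higher in retina and 0 in RPE/choroid, and all 14 were lowest in retina library 3. Cryaa, alpha-A crystallin, had 1905, 3875 and 75.1 CPM in retina and 10.1, 273 and 11.8 CPM in RPE/choroid (edgeR adjusted p = 0.083). Crybb2, a beta crystallin, had 458, 1078 and 25.3 CPM against 12.3, 265 and 11.2 CPM. Both were highest in retina library 2 and, within RPE/choroid, in library 2. Without RPE/choroid library 2, 11 lens genes were called higher in retina, and without retina library 3, 9 were.

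Of 9 striated muscle genes, 6 were called higher in RPE/choroid (median -8.74), and this rested on library 2. Ckm, muscle creatine kinase, had 1.33, 0.860 and 0.586 CPM in retina and 1.46, 1216 and 5.78 CPM in RPE/choroid. Acta1, skeletal actin, had 5.53, 3.94 and 3.78 CPM against 5.11, 1249.9 and 7.07 CPM. Without RPE/choroid library 2 the list's median was -2.71, and 8 members passed edgeR's test with all libraries but 0 when any 1 retina library was left out. Fat cell genes were called higher in RPE/choroid for 3 of 5 (median -3.04). Among them was Fabp4, a lipid chaperone, with 0.810, 0.860 and 0.846 CPM in retina and 5.55, 24.9 and 5.33 CPM in RPE/choroid. Adipoq, adiponectin, overlapped at 23.4, 35.3 and 25.0 CPM and 12.6, 39 and 10.1 CPM. Surface epithelial genes stayed low in all 6 libraries, with 2 of 5 called (median -1.87) and summed levels of 1.89 to 4.51 CPM in retina and 5.25 to 16.3 CPM in RPE/choroid.

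Of 20 glycolysis genes, 4 were called higher in retina and 1 in RPE/choroid, against 20.6% and 22.1% of all genes. The median was 0.40 (edgeR adjusted p under 0.05 for 8 and 1). Pkm, pyruvate kinase, had 2579, 2429.7 and 2594 CPM in retina and 1823, 2054 and 1156 CPM in RPE/choroid. Aldoa, aldolase A, had 1750.4, 1645 and 1765 CPM against 2063, 2989 and 1654 CPM. Gapdh had 1645, 1480 and 1812 CPM against 1695, 2486 and 1020.1 CPM, with a log2 fold change of -0.08 that turned to 0.01 with RLE scaling. None of the 3 passed the test. Of the 20 genes, 18 were lowest in RPE/choroid library 3, the library poorest in rod RNA.

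The members past 4-fold were Hk2, Tpi1, Pfkl and Eno2 on the retina side and Ldhb on the other. Hk2, the hexokinase of photoreceptors, had 966, 937 and 1201 CPM in retina and 91.0, 85.6 and 26.6 CPM in RPE/choroid (15.3-fold, log2 fold change 3.93, SE 0.51, edgeR adjusted p = 0.00064). Pfkl, the liver-type phosphofructokinase, had 476, 429 and 471 CPM against 77.0, 44.7 and 68.1 CPM (7.25-fold, edgeR adjusted p = 4.9e-05). Ldhb, the lactate dehydrogenase chain that favours the step from lactate to pyruvate, had 143, 130.3 and 142 CPM against 546, 606 and 607 CPM (4.23-fold higher in RPE/choroid, edgeR adjusted p = 1.0e-05), unlike Ldha, the chain of the reverse step. Ldha overlapped, at 1383, 1275 and 1428 CPM in retina and 1139, 1528 and 656 CPM in RPE/choroid. Tpi1, triosephosphate isomerase, had 443, 438 and 491 CPM against 3.73, 5.63 and 1.51 CPM (126-fold), and whether counting entered into this was not tested.

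Of 12 genes of fatty acid oxidation and ketone synthesis, 3 were called higher in RPE/choroid and 1 in retina (median -0.40, edgeR adjusted p under 0.05 for 6 and 4). Hadhb, the beta subunit of the mitochondrial trifunctional protein, had 84.6, 83.8 and 86.9 CPM in retina and 339.7, 373 and 372 CPM in RPE/choroid (4.25-fold). Hadha, its alpha subunit, overlapped at 169, 169 and 178 CPM and 156, 170.0 and 156 CPM. Members of the pathway thus differed in direction. Acadm, a medium-chain dehydrogenase, was higher in retina by the test, with 404, 379 and 443 CPM against 265, 271 and 139 CPM (edgeR adjusted p = 0.023). Ppara, the receptor that activates such genes, was called higher in retina, at 24.5, 29.8 and 25.8 CPM against 4.13, 4.25 and 2.09 CPM (7.66-fold).

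RNA of the mitochondrial genome was higher in retina for all 13 protein genes by the test, with 9 of 13 past 4-fold (median 2.54). Mt-co1, a cytochrome oxidase subunit, had 30331, 27766 and 31029 CPM in retina and 4537, 6608 and 4186 CPM in RPE/choroid (5.81-fold, edgeR adjusted p = 0.00016). The size of the difference was uneven within this 1 genome, from a log2 fold change of 1.13 for Mt-atp6 to 6.19 for Mt-nd4, which had 5617, 4612 and 6069 CPM in retina and 59.5, 99.1 and 65.3 CPM in RPE/choroid. In retina the 13 genes summed to 86028, 77064 and 91266 CPM, and in RPE/choroid to 16687, 24254 and 15425 CPM.

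Of 11 claudin and junction genes tested, 2 were called higher in RPE/choroid and 1 in retina (median 1.09, edgeR adjusted p under 0.05 for 3 and 5). Cdh2, N-cadherin, had 259, 267 and 249.97 CPM in retina and 40.8, 40.4 and 18.7 CPM in RPE/choroid (7.76-fold, edgeR adjusted p = 0.00026). Cdh1, E-cadherin, had 34.0, 53.7 and 6.38 CPM against 213, 232 and 307 CPM (7.99-fold higher in RPE/choroid, edgeR adjusted p = 0.01). Tjp1, the junction scaffold zonula occludens protein, was higher in retina by the test, at 279, 280.3 and 299 CPM against 90.1, 83.2 and 90.9 CPM (3.25-fold, edgeR adjusted p = 1.1e-05). In each of the 3 the tissues did not overlap. Cldn1, a claudin of epithelial barriers, was called higher in RPE/choroid, with 2.06, 4.01 and 0.260 CPM against 85.9, 96.0 and 73.4 CPM (40.3-fold, edgeR adjusted p = 0.001).

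Of 14 regulators, 7 were called higher in retina and 5 in RPE/choroid (edgeR adjusted p under 0.05 for 6 and 5). None overlapped, where 88.2% of all genes tested had no overlap. Pax6, the eye field factor kept in inner neurons, had 299, 300.3 and 320.2 CPM in retina and 60.1, 58.6 and 3.70 CPM in RPE/choroid (7.51-fold, edgeR adjusted p = 0.03). Crx, the photoreceptor factor whose core letters are marked above, had 306, 288 and 282 CPM against 134, 97.8 and 7.14 CPM and fell short of 4-fold (3.66-fold, edgeR adjusted p = 0.11). Rorb, a nuclear receptor of photoreceptors and inner neurons, had 91.6, 92.9 and 137 CPM against 16.5, 12.3 and 5.46 CPM (9.38-fold, edgeR adjusted p = 0.00087). In RPE/choroid the called factors were those of mesenchyme (Foxc1, Foxc2, Meox2, Tbx15) and of pigment cells (Tfec). Foxc1, of the periocular mesenchyme, had 1.33, 0.717 and 1.24 CPM against 19.9, 24.0 and 24.5 CPM (20.8-fold, edgeR adjusted p = 1.9e-05). Otx2, a factor that both photoreceptors and RPE are known to express, was called higher in retina, with 61.4, 56.2 and 62.2 CPM against 0.711, 0.193 and 0.0860 CPM (182-fold), so a defining gene of the RPE was near 0 in libraries that hold other RPE genes. The part of counting in this was not tested.

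The study's compound, 8-aminoguanine, inhibits purine nucleoside phosphorylase, so the baseline level of the salvage and breakdown enzymes was described too. Of 11 genes, 5 were called higher in RPE/choroid and 1 in retina (median -1.68, edgeR adjusted p under 0.05 for 7 and 3). Pnp, the phosphorylase itself, which splits guanosine and inosine, had 19.97, 19.5 and 19.7 CPM in retina and 233, 239.8 and 275 CPM in RPE/choroid (12.6-fold, log2 fold change -3.66, SE 0.10, edgeR adjusted p = 4.0e-06). Xdh, xanthine oxidoreductase, had 7.29, 7.31 and 8.14 CPM against 215, 172 and 167 CPM (24.4-fold, log2 fold change -4.60, SE 0.14, edgeR adjusted p = 4.3e-06). Aprt, which salvages adenine, had 5.75, 6.23 and 3.65 CPM against 139, 179.7 and 215 CPM (34.1-fold). For these genes the groups were tight and far apart.

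Gda, guanine deaminase, was called higher in RPE/choroid too, with 1.25, 0.717 and 0.846 CPM in retina and 100.5, 108 and 154 CPM in RPE/choroid (129-fold, edgeR adjusted p = 7.3e-06). Ada, adenosine deaminase, had 0.221, 0.143 and 0.260 CPM against 38.7, 40.6 and 59.8 CPM (223-fold, edgeR adjusted p = 6.7e-06). Some members went the other way. Nt5e, the surface enzyme that makes adenosine from AMP, was higher in retina by the test and below 4-fold, at 135, 141 and 155 CPM against 54.5, 47.2 and 21.8 CPM (3.49-fold, edgeR adjusted p = 0.0033). Hprt1, which salvages hypoxanthine and guanine, was called higher in retina, with 18.9, 16.6 and 19.1 CPM against 2.84, 2.79 and 1.68 CPM (7.46-fold, edgeR adjusted p = 7.9e-05). These levels in RPE/choroid are those of RPE, vessels and immune cells together.

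Outside the lists and leaving out clone and locus names (such as those that begin with LOC or RGD), the 10 genes with the largest fitted log2 fold changes in RPE/choroid that had at least 50 CPM there were Rps18l1, Ccl11, Rps27a, Mfap5, Rps20, Fxyd2, Fam167b, Plac9, Lbp and Inmt. Rps18l1, Ccl11, Rps27a, Mfap5, Rps20, Fxyd2 and Fam167b had 0 counts in retina. Their folds are therefore bounds, and their rank rests on the fitted values. Ccl11, the eosinophil chemokine eotaxin, had 0 counts in retina and 292, 433 and 649 CPM in RPE/choroid. Mfap5, a microfibril protein, had 0 counts against 106, 125 and 137 CPM. Fxyd2, the gamma subunit of the sodium pump, had 0 counts against 53.1, 65.4 and 80.1 CPM. All 3 were present in every RPE/choroid library. Lbp, which binds bacterial lipopolysaccharide, had 0, 0 and 0.130 CPM against 169.8, 161 and 223 CPM. Inmt, a methyltransferase of indoles, had 0.368, 0.358 and 0.195 CPM against 749.8, 828 and 1743 CPM.

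In retina the genes so chosen included Fth1, Hspa1a, Rpl23a, Rpl10a, Prelid1, Cacng7, Hnrnpa0, Fibcd1 and Gpbp1l2. Cacng7, an auxiliary subunit of AMPA receptors, had 105, 93.1 and 107 CPM in retina against 0.0339, 0.110 and 0 CPM. Fth1, the ferritin heavy chain that nearly every cell uses, had 362, 343 and 319 CPM in retina and was listed at 0 in the 3 young RPE/choroid libraries, as were Hspa1a, Rpl23a, Rpl10a and Prelid1. The folds of these genes are bounds too.

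Such zeros were a feature of the tables. Of the genes called higher in retina, 134 had 0 counts in all 9 RPE/choroid libraries of the series, 14 of them at 50 CPM or more in retina, and of those called higher in RPE/choroid, 193 had 0 counts in all 9 retina libraries, 6 of them at 50 CPM or more. They include genes that all cells use: Rps27a, Rps20 and Rps18l1 were at 0 in retina and at 171, 92.7 and 466 CPM in RPE/choroid, and Rpl23a and Rpl10a were at 0 in RPE/choroid and at 146 and 67.8 CPM in retina. Genes named as ribosomal proteins, a group chosen after its values were seen, had fitted log2 fold changes from -16.56 to 14.88 over 90 tested. These ends belong to Rps18l1 and Rpl23a, at 0 counts in 1 tissue, whose folds are bounds of 6659 and 5462. Of the 90, 12 were called higher in retina, 18 in RPE/choroid and 31 lay within 2-fold. For all genes tested the shares were 20.6%, 22.1% and 32.2%. In the list of 14 widely expressed genes, 2 were called higher in retina and 4 in RPE/choroid, from -3.48 for Actb (beta-actin, 697, 659 and 575 CPM against 5863, 6348 and 9371 CPM) to 6.73 for Rpl13a (202, 197 and 202 CPM against 1.76, 0.745 and 3.07 CPM), with a median of -0.62. Eef1a1, Ppia and B2m, the other members with the highest levels, had log2 fold changes of -0.14, -1.73 and -3.45. A single gene's difference between the tables can thus be as large as that of the tissue markers, and how much of any such difference comes from preparation or counting was not tested.

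The same rule was applied to the untreated aged libraries (24 months, 3 of each tissue), which were made and counted in the same different ways and so share that limit. There 3098 of 16169 genes were called higher in retina and 3207 in RPE/choroid. Of the young calls, 2808 of 3320 (84.6%) in retina and 2990 of 3559 (84%) in RPE/choroid were called the same way, and 0 were called the opposite way, while 90.6% and 93.2% of the aged calls were also young calls. Among 353 list members tested at both ages, 328 had the same direction. Median log2 fold changes in aged libraries were 2.51 for rod genes, -2.76 for the visual cycle, -7.98 for melanin, -5.18 for endothelium and -5.99 for MHC class II, whose young median was -10.24. Cd74 illustrates the last, with 16.3, 95.7 and 10.8 CPM in aged retina against 3706, 6713 and 3541 CPM in aged RPE/choroid. The list medians that moved most were those of the lens genes, with a median of -2.86 in the aged libraries against 2.72 in the young, and the red cell genes, with -0.33 against -4.73. The aged lens median leaves out members that failed the aged filter, such as Crygs and Lim2. Summed lens levels in aged libraries were low, at 24.4, 17.8 and 19.0 CPM in retina and 33.3, 25.3 and 58.6 CPM in RPE/choroid. Mip went the other way, at 17.5, 10.6 and 12.7 CPM in aged retina against 0.136, 0.234 and 0.301 CPM in aged RPE/choroid. The rod sum was 13525, 783 and 18212 CPM in the aged RPE/choroid libraries, so 1 library poor in rod RNA is found at that age too.

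**Figure D5:**
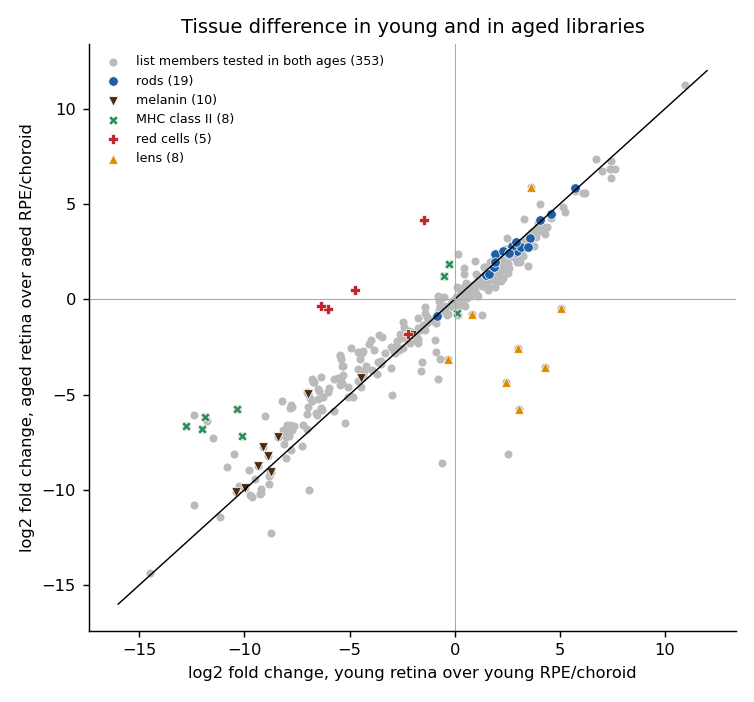
Each point is 1 list member, with its log2 fold change (retina over RPE/choroid) in young libraries on the x axis and in untreated aged libraries on the y axis. Rod, melanin, MHC class II, red cell and lens members are coloured, and all others are grey. Most members lie on the same side of 0 at both ages (328 of 353), and lens and red cell genes are among those that do not.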

How the data were processed

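Poly-A RNA of neural retina and RPE/choroid was sequenced in 18 libraries, of which 6 enter the comparison. Retina values are expected counts per gene, which the authors deposited without normalization in a table named for RSEM; 20.6% of the nonzero young values were not whole, and all were rounded to whole numbers. RPE/choroid values are whole-number counts that the authors deposited without scaling, and their counting program is not given in the sources used here. The submitters' processing notes name Bowtie2 2.1.0, RSEM 1.2.15, edgeR and the Rnor_6.0 build for every sample, without roles. A deposited table of the authors' TMM-normalized retina signal served only to pair symbols with identifiers. The authors' fold changes and p-values of their own comparisons were not used.

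The tables (32285 and 32552 Ensembl identifiers) were joined on 31938 shared identifiers. Symbols came from the RPE/choroid tables (16590) or from retina values matched within 0.52 reads (766), and 11737 of 12782 identifiers named both ways were named alike (91.8%). Genes were filtered with filterByExpr (minimum count 10) on the 6 libraries, CPM used TMM-corrected totals, and edgeR 4.0.16 in R 4.3.3 (limma 3.58.1) fitted tissue with glmQLFit (robust) and glmQLFTest, with Benjamini-Hochberg adjustment; the fit was tested on simulated counts. The standard error is the absolute log2 fold change divided by the square root of F. The main result is a description, a fold of mean CPM of at least 4 with no overlap of the 3 and 3 libraries. A fold against a group with 0 counts is a bound at 3 counts over the group (0.07 CPM in retina, 0.0267 CPM in RPE/choroid), and covers counting error only. A list's median was also taken with such genes at their bound. Figures were drawn with Python 3.11.15 and matplotlib 3.10.9.

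The members and the 32 gene lists (394 entries, of which 379 genes were found and 362 tested) were chosen with earlier results of these data known. Named genes are up to 4 members of each list with the highest mean CPM in the higher tissue, members that go against their list, the 10 largest log2 fold changes in each direction outside the lists (called, adjusted p under 0.05, at least 50 CPM, with a symbol that is not a clone or locus name), and the genes the study names as RPE markers. Named after their values were seen were Ada, Cd36, Cldn1, Cldn19, Cngb1, Col1a1, Col4a1, Eno2, Foxc1, Foxc2, Gda, Gngt1, Hk2, Ldha, Meox2, Mitf, Mt-atp6, Mt-nd4, Otx2, P2ry12, Pfkl, Rdh10, Rrh, RT1-DMa, RT1-DMb, Rpl13a, Slc16a8, Slc24a5, Tbx15, Tfec, Tpi1 and the ribosomal protein genes. Promoters came from a RefSeq table on GRCr8, with an entry for 257 of the 362 tested list genes. Alternatives were other scalings, filters, fold thresholds and tests, unrounded values, a replicate block, RPE/choroid libraries 1 and 2 summed, the aged libraries, and leaving out each library. The 8-AG-treated libraries were not compared here. Some genes that the naming rule picks are not reported here.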

Additional observations from a re-analysis of the deposited data

Results flagged for a closer look

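Among the genes printed above, RT1-DMb, a class II gene that helps to load peptide, was the one whose tissues did not overlap at either age and lay in opposite order. In young libraries its log2 fold change was -0.4856 (retina over RPE/choroid), with 1.18, 1.003 and 0.912 CPM in retina and 1.42, 1.38 and 1.53 CPM in RPE/choroid. In the untreated aged libraries it was 1.23, with 3.13, 6.17 and 2.71 CPM in retina and 1.6, 2.20 and 1.31 CPM in RPE/choroid. The difference between the ages was not tested, and the levels are low. Over all 15857 genes tested at both ages, 22 (0.139%) had such an opposite order. No formal outlier test was run on single values, since each group holds 3 libraries.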

How the results depend on the processing

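With plain totals, RLE factors or totals without rod and mitochondrial genes, 3325 to 3478 genes were called higher in retina and 3460 to 3538 in RPE/choroid, and the median log2 fold change of all genes moved from -0.10 to -0.03 with RLE. Counts followed the threshold and filter: a 2-fold rule gave 5193 and 5562, an 8-fold rule 2002 and 2440, no filter 3745 and 4208, and at least 10 counts over the 9 libraries of each tissue 2798 and 3200. Leaving out each library gave 3035 to 3543 and 3375 to 3872 calls, and 12465 to 13637 genes by edgeR's test. DESeq2 1.42.0 called 13396 genes, 6541 higher in retina. The labels do not say whether equal replicate numbers mark the same rat. Correlations of deviations were -0.073, -0.01 and -0.086 for equal numbers, but 0.136 for retina library 3 with RPE/choroid library 1. They therefore cannot decide whether the samples are paired. The fit with a replicate block gave 12361 genes, 5661 and 6700 by direction. It moved the muscle median to -4.42 and changed no other list median beyond the spread of its libraries. RPE/choroid libraries 1 and 2 summed gave 3339 and 3745 calls.

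Of the list medians recomputed, 35 moved by more than the spread of their libraries and 509 did not. The sign of the lens list turned in aged libraries, where fewer of its members were tested. Mast gave -7.86 without a filter and -0.31 with the filter on both tables, which leaves fewer members; lymphocyte gave -8.16, -9.46 (10 counts in every library of 1 tissue), -10.01 (both tables) and -11.18 (libraries summed); Schwann gave -3.94 with 10 counts in every library of 1 tissue. Housekeeping gave -0.72 with the filter on both tables and with libraries summed. In aged libraries medians were -7.98 for melanin, -5.18 for endothelium, -3.66 for fibroblast and matrix, -3.61 for Schwann, -4.36 for macrophage, -6.52 for lymphocyte, -5.99 for MHC class II, -2.92 for complement, -0.33 for red cell, -2.86 for lens and -0.78 for fatty acid genes; the cause was not tested. Leaving out 1 library gave medians of -4.01 to -3.15 for Schwann (-3.04 with all libraries), -11.20 to -7.51 for lymphocyte, -4.57 to -3.60 for complement, -6.55 to -6.10 for endothelium, -2.06 to -0.79 for surface epithelium, -9.34 to -8.11 for mast and -9.33 to -2.71 for muscle; the values nearest 0 for mast and muscle came without RPE/choroid library 2.

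Some named genes changed sign. Gapdh gave 0.0104 with RLE and DESeq2, 0.011 with the block and -0.36 to 0.15 with a library left out. Efemp1 gave -0.063 unfiltered, -0.107 with both tables filtered, -0.025 unrounded, -0.048 with the block, -0.092 summed, -0.077 aged and -0.18 to 0.24 with a library left out. Hadha gave -0.0101 with both tables filtered, -0.0132 summed and -0.18 aged. Ciita gave -0.12 summed, -0.70 aged and -0.15 to 0.35 with a library left out. Cacna1s gave 0.19 with the block. Leaving out a library gave -2.57 to 1.61 for Cacna1s, -1.22 to 0.033 for Rdh10, -2.12 to 0.065 for Hbb-b1, -0.21 to 0.67 for Rlbp1 and -0.76 to 0.28 for RT1-DMa. In aged libraries the values were 0.47 for Hbb, 4.16 for Hbb-b1, -3.53 for Cryaa, -4.35 for Crybb2, -5.76 for Cryba1, -2.57 for Cryba4, -0.20 for Eno1, -0.18 for Ldha, 0.085 for Itgb8, -0.25 for Rlbp1, -8.13 for Col1a2, 1.85 for RT1-DMa and 1.23 for RT1-DMb. The causes were not tested. Depth limits the genes at 0 counts to bounds.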
